A study of Equus caballus with 6 samples.

Results

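SDHB, ATP5F1B, COX7C, COX17, MDH2, CPT1A and PPARA are 7 nuclear genes of mitochondrial respiration and fatty acid use. They were picked by name, and every non-control probe whose transcript accession belongs to one of them was taken. This gave 25 of the 43603 non-control probes on the array, and 7 of the 870 horse genes with a RefSeq name among the probes. ATP5F1B had 11 probes, COX17 and MDH2 had 5 each, and SDHB, COX7C, CPT1A and PPARA had 1 each.

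RNA came from leukocytes of the buffy coat, the layer of white cells that forms when blood is spun, of gelding warmblood horses. The after-exercise group held 3 samples and the before-exercise group held 3, each pair from the same animal: horse 1 (11 years in the labels), horse 2 (7 years) and horse 4 (15 years). The age of horse 2 lies below the range given in the series' design text. The labels mark the later samples with 60 min, whereas the protocol speaks of sampling directly after the exercise, so the interval is not settled. Each sample was 6 ml of jugular blood, labelled with Cy3 and hybridised to 1 array, and the labels name no treatment other than exercise. The question was whether transcripts of these metabolic genes differ in circulating leukocytes after exercise.

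Mitochondria pass electrons from food molecules along a chain of complexes in the inner membrane and use the proton gradient this builds to make ATP. SDHB is the iron-sulfur subunit of complex II, which joins the citric acid cycle to the chain, and MDH2 is the malate dehydrogenase of that cycle. COX7C is a small subunit of complex IV, COX17 is the chaperone that carries copper to that complex, and ATP5F1B is the catalytic beta subunit of ATP synthase. CPT1A loads long-chain fatty acids onto carnitine so that they can enter the mitochondrion, and PPARA is a fatty acid-sensing nuclear receptor that in mice and humans switches on genes of fatty acid oxidation, CPT1A among them. Neutrophils are known to rely mostly on glycolysis, while lymphocytes and monocytes use more mitochondrial respiration.

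Between 64.1% and 69.4% of the non-control spots on an array were well above background, and none was saturated. The array of horse 4 after exercise was the dimmest, with 1124 signal units at its 75th percentile where the other 5 had 1753 to 2536. Slide 1 held the 3 arrays after exercise and the array of horse 4 before exercise, while the arrays of horses 1 and 2 before exercise shared slide 2. Measured leukocyte markers such as FCAR of neutrophils, CD2 of T cells, CD14 of monocytes and PAX5 of B cells were well above background on all 6 arrays, and so were the haemoglobin genes HBB and HBA2 and the platelet integrin ITGA2B. Levels below are log2 signals minus the 75th percentile of the array, and a difference of 1 on this scale is a 2-fold difference. Of the 25 probes, 23 were well above background on all 6 arrays. The other 2, one of COX17 and one of MDH2, lie in the first array column and are described on their own. Where a gene has several probes, its value is that of the brightest probe outside the first column.

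None of the 7 genes passed the test between the 3 arrays after and the 3 before exercise. The adjusted p was 0.999 in limma for all 7, and over the whole array 0 of 29575 probes (0%) were called. The differences were small: SDHB and MDH2 stood highest, at 0.29 and 0.27, and PPARA lowest, at -0.10. The 95% intervals ran from -0.79 at the lowest bound, for PPARA, to 1.04 at the highest, for CPT1A. In this fit, a level more than 2.05-fold higher or more than 1.73-fold lower after exercise thus lay outside the interval of each of the 7. The fit uses neither the pairing by horse nor the slide, and these bounds hold for it alone. With the horse as a block, the interval was -0.31 to 0.66 for CPT1A, -0.61 to 0.41 for PPARA and -0.67 to 0.84 for COX17. With slide as a block the change of PPARA was -0.58. In a mixed cell sample such as this one, fewer cells of a type and less RNA per cell cannot be told apart.

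**Figure D1:**
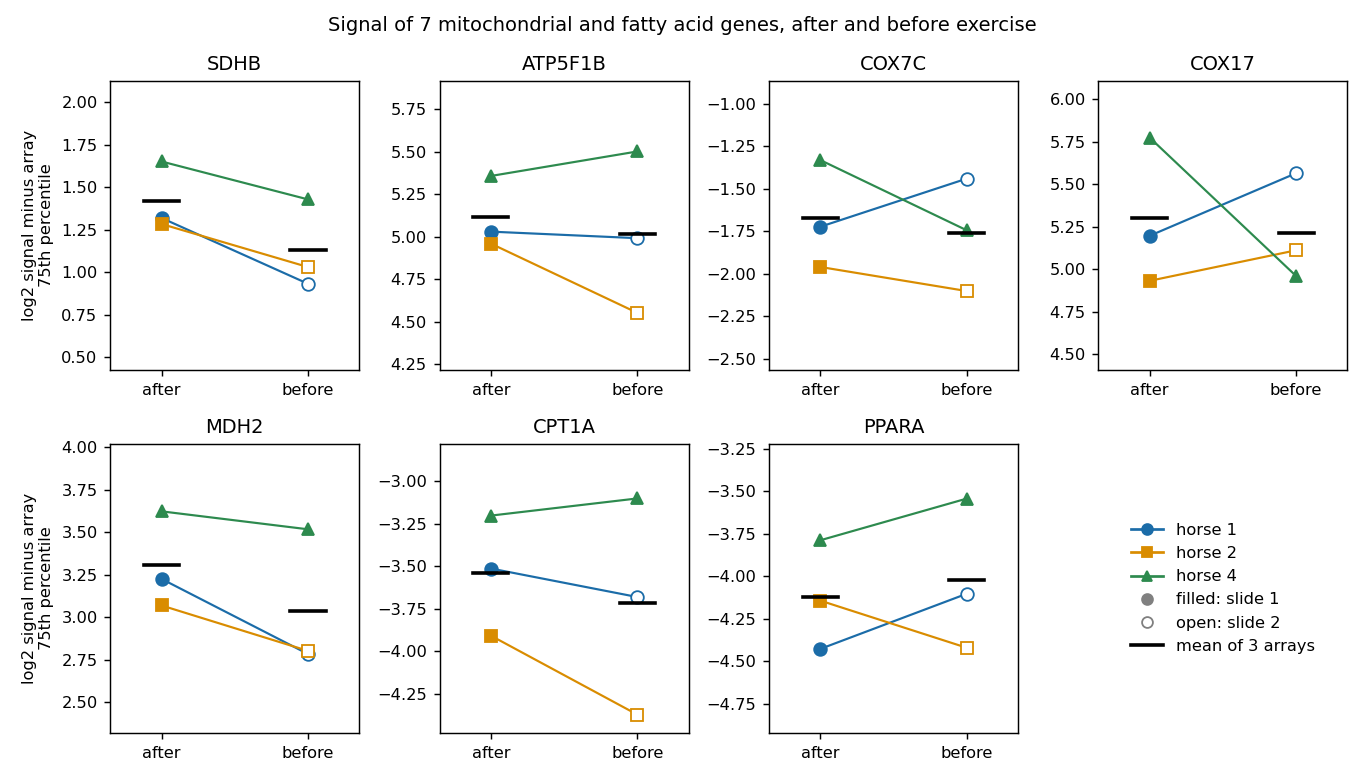
Each panel shows 1 gene by its brightest probe outside the first array column, with the log2 signal minus the array's 75th percentile on the vertical axis (each panel spans the same range) and the 3 arrays after exercise left of the 3 before. Lines join the arrays of a horse, fill marks the slide, and black bars are the means of 3 arrays; the lines of SDHB and MDH2 slope the same way in all 3 horses, and the groups overlap in all 7 panels.

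SDHB, the complex II subunit, had levels of 1.32, 1.28 and 1.65 after exercise in horses 1, 2 and 4, against 0.93, 1.03 and 1.43 before. All 3 horses were higher after exercise, and the groups overlapped through the array of horse 4 before exercise, the only one of its group on slide 1. The means were 1.42 ± 0.20 after and 1.13 ± 0.26 before (SD, n = 3 each). The differences within the horses were 0.39, 0.25 and 0.22, with an SD of 0.09 that was smaller than the spread between horses in either group. The change of 0.29 (SE 0.22, 95% interval -0.23 to 0.81) had an adjusted p of 0.999 in limma, and of 0.753 with the horse as a block.

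MDH2 is the malate dehydrogenase of the citric acid cycle. Its levels were 3.23, 3.07 and 3.62 after exercise in horses 1, 2 and 4, and 2.78, 2.80 and 3.52 before. The brightest probe was higher after exercise in each horse, by 0.44, 0.27 and 0.11, and the groups overlapped through horse 4. The change was 0.27 (SE 0.28, 95% interval -0.39 to 0.93; adjusted p = 0.999 in limma). Across the 4 MDH2 probes outside the first column, the differences lay between 0.37 and 0.56 in horse 1, between 0.11 and 0.27 in horse 2 and between -0.02 and 0.11 in horse 4. Horses 1 and 2 were thus higher after exercise on all 4 probes, while horse 4 stood at about 0.

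Being higher after exercise in all 3 horses was not unusual on this array, where 17.3% of probes were. Of the 7 genes 2 were (SDHB and MDH2), and of the 23 probes outside the first column 3 were. The share of probes lower in all 3 horses was 11.5%, and none of the 7 genes was among them. For 7.31% of all probes the 2 groups did not overlap (3.51% with after exercise higher and 3.80% with it lower), which held for 0 of these 23 in either direction. An unadjusted p under 0.05 was found for 2.89% of all probes and for 0 of the 25, and with the horse as a block for 6.09% and again 0 of the 25.

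ATP5F1B, the catalytic subunit of ATP synthase, was read by 11 probes. The brightest, A_69_P107891, had 5.03, 4.96 and 5.36 after exercise in horses 1, 2 and 4, against 4.99, 4.55 and 5.50 before. The change was 0.10 (SE 0.28, 95% interval -0.57 to 0.77; adjusted p = 0.999 in limma). All 11 probes had a change above 0, from 0.02 to 0.19, but the 11 are readings of the same 6 samples and not replicates. Horse 2 was higher after exercise on all 11 probes, by 0.27 to 0.46, and horse 4 was lower on all 11, by -0.25 to -0.04. In horse 1 the probes fell on both sides of 0, from -0.19 to 0.31.

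COX17 is the copper chaperone of complex IV. Of the 7 genes, by their brightest probes, its within-horse differences had the widest spread (SD 0.64). Its levels were 5.20, 4.93 and 5.77 after exercise in horses 1, 2 and 4, against 5.56, 5.11 and 4.96 before. Horse 4 thus had the highest level after exercise and the lowest before. The within-horse differences were -0.37, -0.18 and 0.81, and they averaged 0.09 (SE 0.29, 95% interval -0.59 to 0.77; adjusted p = 0.999 in limma). All 4 probes outside the first column were higher after exercise in horse 4 and lower in the other horses: -0.46 to -0.18 in horse 1, -0.30 to -0.05 in horse 2, and 0.69 to 0.81 in horse 4. Whether horse 4 differed from the others in its change was not tested, since each horse gave 1 pair.

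COX7C, the complex IV subunit, had levels of -1.72, -1.96 and -1.33 after exercise in horses 1, 2 and 4, and -1.44, -2.10 and -1.74 before. Horse 1 was lower after exercise by -0.28, while horses 2 and 4 were higher by 0.14 and 0.41. The mean change of 0.09 (SE 0.26, 95% interval -0.53 to 0.71) did not pass, with an adjusted p of 0.999 in limma. As for the brightest COX17 probe, the most positive difference was that of horse 4 and the most negative that of horse 1.

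For the 3 genes with several probes, the probes differed from each other less than the horses did. In COX17 the SD of the difference between the 4 probes was 0.12, 0.11 and 0.05 in horses 1, 2 and 4, against 0.59 between the horses after averaging the probes. In ATP5F1B the SD between the 11 probes was 0.14, 0.06 and 0.06, against 0.24 between the horses. In MDH2 it was 0.08, 0.07 and 0.06 between the 4 probes, against 0.22 between the horses. Averaged over probes, the changes were 0.09 for ATP5F1B, 0.08 for COX17 and 0.22 for MDH2. Across the 6 arrays, pairs of probes of the same gene had a median Pearson correlation of 0.98 for ATP5F1B (55 pairs, lowest 0.80), 0.97 for COX17 (6 pairs, lowest 0.93) and 0.99 for MDH2 (6 pairs, lowest 0.98).

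**Figure D2:**
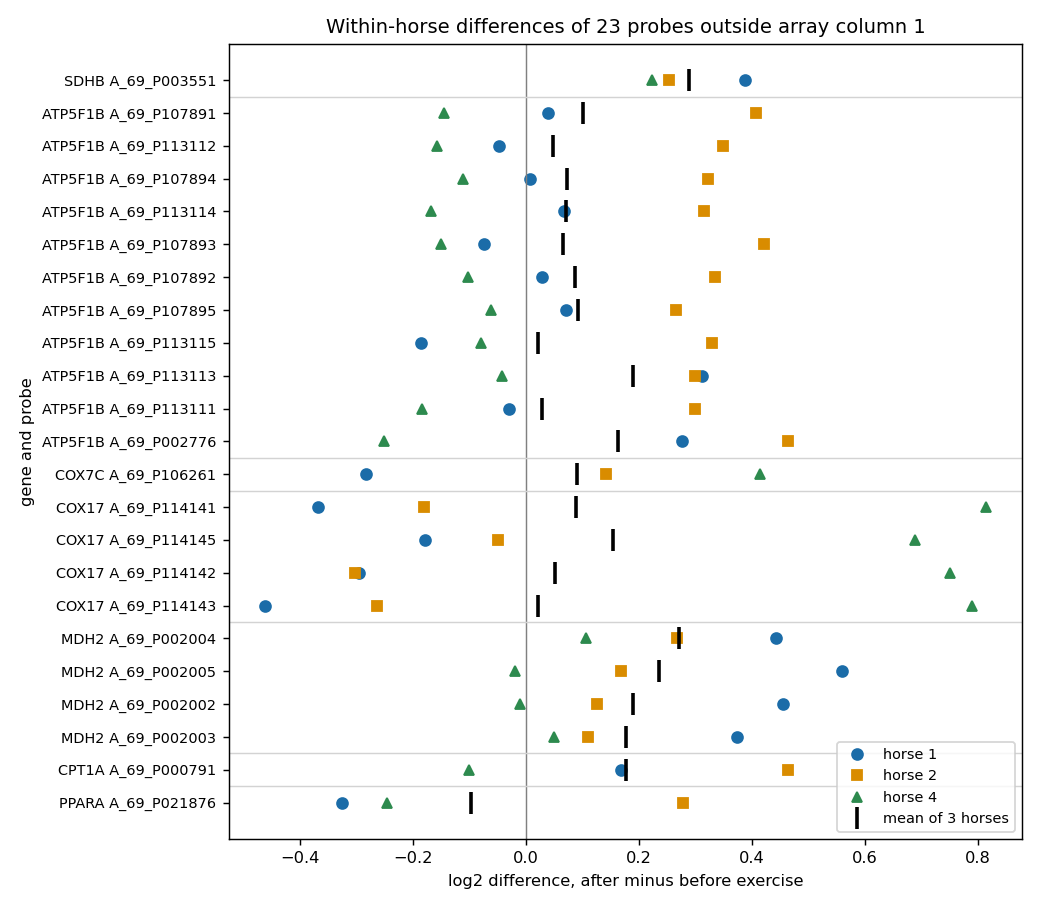
Each row is 1 of the 23 probes outside the first array column, grouped by gene, and the horizontal axis is the log2 difference after minus before exercise; coloured symbols are the 3 horses and black ticks their mean. The 4 COX17 probes put horse 4 between 0.69 and 0.81, apart from the other horses, while the horse 1 symbols of ATP5F1B spread from -0.19 to 0.31.

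The fatty acid genes were read by 1 probe each, near the lower end of the measured range, but well above background on all 6 arrays. CPT1A, the carnitine transferase, had a processed signal of 171, 150 and 122 units after exercise in horses 1, 2 and 4, and 140, 122 and 204 before. Scaled to the array, its levels were -3.51, -3.91 and -3.20 after exercise, against -3.68, -4.37 and -3.10 before. Horses 1 and 2 were higher after exercise, by 0.17 and 0.46, and horse 4 was lower, by -0.10. The change was 0.18 (SE 0.36, 95% interval -0.68 to 1.04; adjusted p = 0.999 in limma).

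PPARA, the receptor, had a processed signal of 90.8, 127 and 81.4 units after exercise in horses 1, 2 and 4, and 105, 118 and 150 before. Its scaled levels were -4.43, -4.14 and -3.79 after exercise, against -4.10, -4.42 and -3.54 before. Horses 1 and 4 were lower after exercise, by -0.32 and -0.25, and horse 2 was higher, by 0.28. The change was -0.10 (SE 0.29, 95% interval -0.79 to 0.60; adjusted p = 0.999 in limma). Of the 7 genes it was the only one with a mean below 0, and this sign was lost with normexp background correction (0.11) and quantile normalization (0.03).

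**Figure D3:**
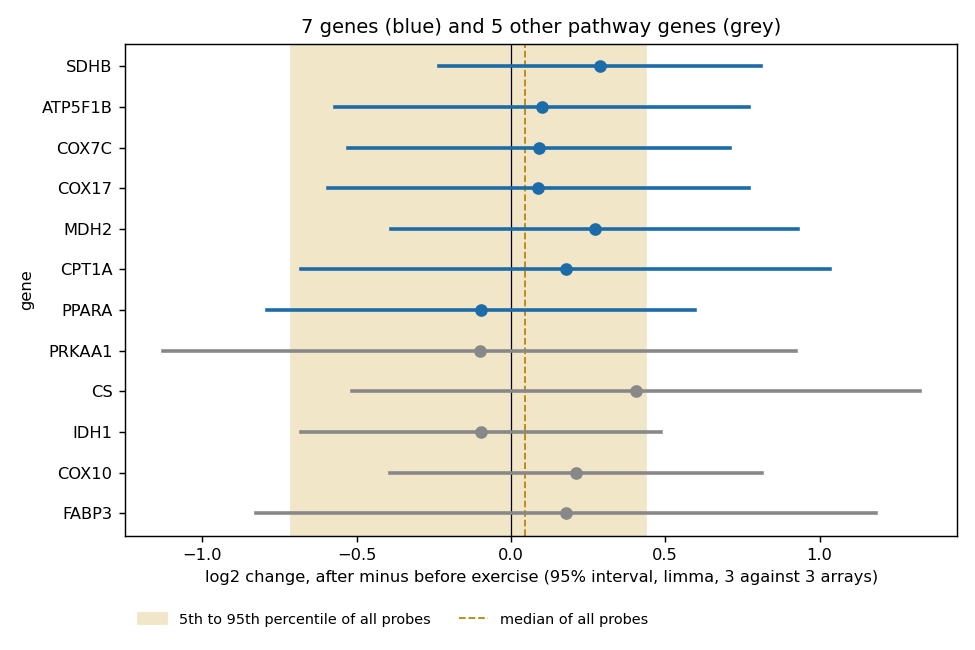
The horizontal axis is the log2 change after minus before exercise, with a point for the estimate and a line for its 95% interval from limma (3 against 3 arrays), for the 7 genes in blue and 5 further pathway genes in grey; the band is the 5th to 95th percentile of all probes (-0.71 to 0.44). All 12 intervals include 0, and all 12 estimates lie inside the band.

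As a group the 7 genes had a median change of 0.10, beside 0.04 for all probes tested. The medians within the horses were 0.04, 0.27 and 0.11 in horses 1, 2 and 4, beside 0.02, 0.10 and 0.004 for all probes. Without the array of horse 4 before exercise the median of the 7 was 0.34, and within slide 1, where the 3 arrays after exercise stand against that array alone, it was -0.21. In slide 1 CPT1A had -0.44, PPARA -0.58, ATP5F1B -0.39, MDH2 -0.21 and SDHB -0.01, while COX17 had 0.34 and COX7C 0.07, and no probe of the 7 genes outside the first column was called there. Horse 4 was the only animal with both arrays on the same slide, so that for horses 1 and 2 slide and exercise cannot be told apart.

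The scaling to the array mattered most in horse 4. Without any scaling, an alternative chosen after seeing the data, its median difference over all probes was -0.64, against 0.14 in horse 1 and -0.07 in horse 2. On that scale COX17 differed by 0.17 in horse 4, SDHB by -0.42, MDH2 by -0.54, CPT1A by -0.74, ATP5F1B by -0.79 and PPARA by -0.89. Over all 3 horses the median probe then stood at -0.19, and relative to it SDHB stood at 0.24 and MDH2 at 0.23, which taking 1 constant off each array leaves as it was by construction. SDHB and MDH2 kept a positive mean change under each of the 4 other scalings and background corrections tried. Without scaling, however, their changes were only 0.06 and 0.04. In horse 4, MDH2 was lower after exercise with normexp background correction (-0.09) and with quantile normalization (-0.05). ATP5F1B and COX17 changed sign with quantile normalization (-0.03 and -0.02), and without scaling ATP5F1B, COX7C, COX17 and CPT1A stood at -0.13, -0.14, -0.14 and -0.06.

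Between the animals, horse 4 had the highest mean level for 6 of the 7 genes and horse 2 the lowest for 6 of 7. These orders were noticed after the values were seen, and they were common on the array: horse 4 was highest for 43.6% of probes and horse 2 lowest for 42.8%. CPT1A averaged -3.60, -4.14 and -3.15 in horses 1, 2 and 4, and ATP5F1B averaged 5.01, 4.76 and 5.43. For MDH2 the means were 3.00, 2.94 and 3.57, and for PPARA they were -4.26, -4.28 and -3.67. SDHB was the gene with horse 1 lowest (1.12, against 1.16 in horse 2 and 1.54 in horse 4), and COX17 the gene with horse 1 highest (5.38, against 5.02 and 5.37). With exercise in the model, limma's moderated F-test called 0 of the 25 probes, beside 0.237% of all probes, and the smallest adjusted p of the 25 was 0.262, for CPT1A. Of the 25 probes 2 had an unadjusted p under 0.05 (CPT1A and the brightest MDH2 probe), beside 15.5% over the array.

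Across the 6 arrays the 7 genes followed each other to different degrees. SDHB and MDH2 had a Pearson r of 0.97 with each other, ATP5F1B and CPT1A of 0.98, ATP5F1B and PPARA of 0.88, and COX7C and COX17 of 0.85. MDH2 also had r of 0.87 with ATP5F1B and 0.85 with CPT1A, and SDHB of 0.74 with ATP5F1B. COX7C had 0.71 with CPT1A. COX17 had r of 0.16 with SDHB, 0.19 with ATP5F1B and 0.16 with MDH2. The points of these correlations are 6 arrays of 3 horses that share the array scaling, so they only describe these samples.

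Among 555 other named genes, the 2 most like each of the 7 over the 6 arrays were found by Pearson r. For SDHB these were PCBP1 (r = 0.992), an RNA-binding protein, and NME1 (r = 0.984), a nucleoside diphosphate kinase. For MDH2 they were NME1 (r = 0.991) and the ferritin light chain FTL (r = 0.990). COX7C was nearest to CAPZA2 (r = 0.997), an actin-capping subunit, and PTGES3 (r = 0.990), an HSP90 co-chaperone. COX17 was nearest to the chemokine CXCL9 (r = 0.964) and RPSA (r = 0.963), a protein of the small ribosomal subunit. PPARA was nearest to the DNA polymerase subunit POLD3 (r = 0.988) and to OS9 (r = 0.973), a lectin of protein quality control. The nearest genes of ATP5F1B were the platelet integrin ITGA2B (r = 0.984) and CD28 (r = 0.982), a surface protein of T cells. Those of CPT1A were CD28 (r = 0.995) and the haemoglobin gene HBA2 (r = 0.991). These are the highest of 555 values of r per gene over only 6 arrays. High values can come from that choice alone, and they only describe these samples.

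Some of these nearest genes are on the marker lists of blood cell types: HBA2 on the erythroid, ITGA2B on the platelet and CD28 on the T cell list. HBA2 had 6.27, 3.56 and 7.69 after exercise in horses 1, 2 and 4, against 5.35, 1.40 and 7.63 before. Horse 4 was thus highest and horse 2 lowest in both groups, as for CPT1A. Since HBA2 was picked by its r with CPT1A on these arrays, the shared order is not a separate observation. ITGA2B had 0.004, -0.11 and 1.06 after exercise and -0.25, -0.94 and 1.30 before. CD28 had -3.69, -4.07 and -3.33 after exercise and -3.93, -4.82 and -3.17 before. Of 9 erythroid markers listed 2 were measured, with a summed signal (in multiples of the array's 75th percentile) of 27.1 to 486 after exercise and 4.84 to 407 before. Of 8 platelet markers 2 were measured, with sums of 1.04 to 3.19 after and 0.651 to 2.94 before, and of 13 T cell markers 3 were measured, with sums of 3.12 to 3.58 after and 2.12 to 5.26 before. Not every marker had horse 4 highest: the other platelet marker, SPARC, had 1.13, -3.18 and -0.35 after exercise and 0.94, -2.94 and -1.06 before, with horse 1 highest in both groups. Each measured marker was well above background on all 6 arrays, and the part of such cells in the levels of ATP5F1B and CPT1A was not tested.

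Scaled to the array, the summed signals of the monocyte, neutrophil and erythroid markers were higher after exercise in every horse. In horse 4 this direction depends on the scaling, since the 75th percentile was 1124 units after exercise and 1753 before. Single markers of the monocyte and neutrophil lists also went the other way. The sum of the monocyte markers, 4 measured of 9 listed, was 62.5, 49.9 and 97.9 after exercise in horses 1, 2 and 4, against 41.4, 33.1 and 82.3 before. TIMP1 was the brightest of these 4 on every array and weighed most in the sum. In horse 4 its level was 6.44 after exercise and 5.99 before, against 3.41 and 4.18 for CD14. It was also the only one of the 4 higher in all 3 horses, by 0.49, 0.53 and 0.45. CD14 and CSF1R were higher in horses 1 and 2 but had differences of -0.77 and -0.28 in horse 4, and CD68 had -0.44 in horse 2. The median change of the 4 was 0.28, and 0 of them were called.

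The neutrophil markers, 3 measured of 15, had sums of 20.7, 18.1 and 23.94 after exercise in horses 1, 2 and 4, against 19.8, 13.2 and 23.88 before. Of the 3, MMP9 was higher in every horse, while FCAR differed by -0.09 in horse 1 and LTF by -1.16 in horse 4. The erythroid sums were 174, 27.1 and 486 after exercise, against 92.9, 4.84 and 407 before. For both lists the sum of horse 2 differed by the largest factor. The NK and cytotoxic cell markers, 5 measured of 10, had sums of 88.4 to 106 after and 59.8 to 133 before. B cell markers, 3 measured of 9, had sums of 1.03 to 1.57 after and 0.887 to 1.67 before. Over all 7 marker lists 0 genes passed in either direction, and the part of cell makeup in the differences of SDHB and MDH2 was not tested.

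Few other genes of these pathways could be named. Of 224 genes listed for complexes I to IV, ATP synthase, the citric acid cycle, fatty acid use and its regulators, 12 had a kept probe outside the first column, and 5 of these are not among the 7. Of the 5, 0 passed in either direction. Citrate synthase CS, which opens the citric acid cycle, had -3.38, -3.66 and -3.45 after exercise in horses 1, 2 and 4, against -3.94, -4.66 and -3.10 before, a change of 0.40 (SE 0.39). It was higher after exercise in horses 1 and 2, by 0.57 and 0.995, and lower in horse 4, by -0.35. COX10, which makes the haem of complex IV, was higher in all 3 horses, by 0.09, 0.49 and 0.06, a change of 0.21 (SE 0.25). The cytosolic isocitrate dehydrogenase IDH1 had a change of -0.10 (SE 0.25), the fatty acid carrier FABP3 of 0.18 (SE 0.42) and PRKAA1, a catalytic subunit of the energy sensor AMPK, of -0.10 (SE 0.43). Each of the 5 had an adjusted p of 0.999 in limma. For complexes I and III, 0 of the 45 and 0 of the 12 listed genes could be named on the array.

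The 2 probes in the first array column differed from the other probes of their genes on 1 array. The COX17 probe A_69_P114144 had a processed signal of 68401, 65030 and 58135 units after exercise in horses 1, 2 and 4, and 67267, 72941 and 5.33 before. The MDH2 probe A_69_P002001 had 16287, 16119 and 11793 units after exercise, and 10539, 16708 and 5.33 before. On the array of horse 4 before exercise both spots were thus dark and not well above background, while in horses 1 and 2 their differences (-0.10 and 0.01 for COX17, 0.51 and 0.12 for MDH2) lay within or close to the range of the other probes. Of the 226 odd-row spots of that column, 95.1% failed the background criterion on this array, while 35.4% to 39.8% did so elsewhere. The horse 4 differences of these probes were 14.1 for COX17 and 11.8 for MDH2, and their changes were 4.66 (SE 3.43) and 4.13 (SE 2.82), neither of which passed in limma (adjusted p = 0.999 each). With slide as a block both were called, at 13.6 (SE 0.38, limma adjusted p = 4.7e-05) and 11.5 (SE 0.28, limma adjusted p = 4.3e-05), and these 2 were the only probes of the 7 genes called under any alternative of the exercise comparison. With the column left out on that array and no slide block, 0 probes of the 7 genes were called, as with the column kept. With slide as a block, the estimate rests on the array of horse 4 before exercise, the only one of its group on slide 1. With the column left out on that array, these 2 probes have no value before exercise on slide 1. Slide and exercise then cannot be told apart for them, so those 2 calls rest on the dark spots and could not be retested.

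**Figure D4:**
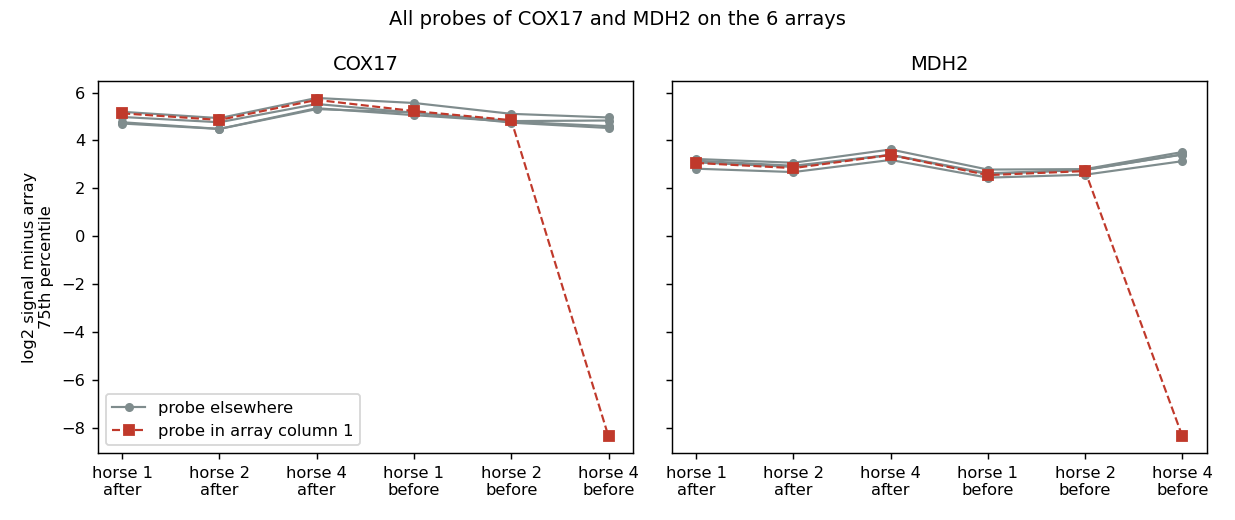
Log2 signal minus the array's 75th percentile for the 5 probes of COX17 (left) and the 5 of MDH2 (right), with the 3 arrays after exercise left of the 3 before; grey lines are probes elsewhere on the array and the red dashed line is the probe in the first column. The red points follow the grey ones on 5 arrays and drop to -8.36 on the array of horse 4 before exercise.

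**Figure D5:**
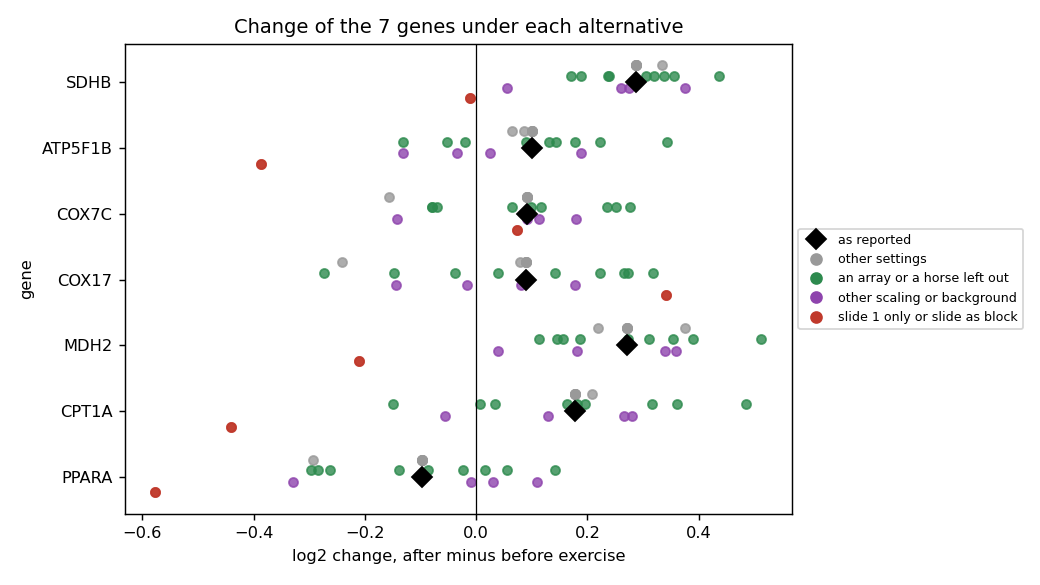
Each row is 1 of the 7 genes and the horizontal axis is its log2 change after minus before exercise; the black diamond is the value as reported and each dot 1 of 22 alternatives, coloured by kind. SDHB and MDH2 have dots below 0 only with slide as a block or slide 1 alone, and the dots of the other 5 genes lie on both sides of 0 under several alternatives.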

How the data were processed

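Each deposited file holds 1 array read by Agilent Feature Extraction 10.10.1.1 in 1 colour, per the file headers. The values used are its processed signal, an intensity already corrected for background and not normalized between arrays, per the file headers. Each log2 intensity had the array's 75th percentile (of 43803 non-control spots) subtracted. Control spots (1417) did not enter. Spots flagged as outliers (67 to 169 per array) were left out of the probe values, but not of the 75th percentile or the background filter. Repeated spots were averaged per probe. Probes well above background on at least 3 of 6 arrays were kept (29576, of which 29575 could be tested). The comparison was a two-sided moderated test in limma 3.58.1 (R 4.3.3). Its p-values were adjusted by Benjamini-Hochberg across the tested probes, and calls needed an adjusted p under 0.05. The code was tested on simulated data. SE and 95% intervals are limma's. Horses were compared with its F-test. Probes were named by RefSeq transcript through a gene table of the assembly TB-T2T (1979 probes, 870 genes).

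The horse numbers pair the samples, since they name the animal. The deviations of a horse's 2 arrays from the means of their groups correlated at 0.36, 0.40 and 0.23 for horses 1, 2 and 4. The horse as a block was an alternative, beside other background correction (normexp, offset 50, on the median spot signal), scalings, filters, slide as a block, slide 1 alone, array weights, the first array column left out on 1 array, and arrays or horses left out. The genes named are the 7, the 3 list members with the smallest p per pathway list, and the 2 genes most like each of the 7. Single cell markers named beside them come from 7 marker lists and were chosen after their values were seen. The members and lists were chosen with earlier results of these data known. The alternatives without scaling and those of the test between horses were chosen after seeing the data.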

Additional observations from a re-analysis of the deposited data

How the results depend on the processing

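Precision was limited by 3 arrays a group. With slide as a block and within slide 1 alone, where the estimates coincide because slide 2 holds no array after exercise, the change was -0.39 for ATP5F1B, -0.44 for CPT1A, -0.21 for MDH2, -0.0102 for SDHB and -0.21 for the median of the 7 genes. There 131 and 122 probes were called in all, and 2 probes of the 7 genes, both in the first array column with its dark spots. Quantile normalization gave -0.0339 for ATP5F1B, -0.0164 for COX17 and 0.0305 for PPARA, and normexp gave 0.11 for PPARA. With no scaling the change was -0.13 for ATP5F1B, -0.14 for COX17, -0.14 for COX7C and -0.0551 for CPT1A, with a median of -0.13, while the median probe moved to -0.19. Array weights gave -0.24 for COX17 and -0.16 for COX7C, and 1636 probes were called, 0 of them of the 7 genes. The cause of these differences was not tested.

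Leaving out 1 array or 1 horse gave changes of -0.13 to 0.34 for ATP5F1B, -0.27 to 0.32 for COX17, -0.0796 to 0.28 for COX7C, -0.15 to 0.49 for CPT1A, 0.11 to 0.51 for MDH2, -0.30 to 0.14 for PPARA and 0.17 to 0.44 for SDHB, with -0.0791 to 0.34 for the median. Between 0 and 594 probes were then called, the 594 without the array of horse 4 before exercise and 20 without both arrays of horse 4, and 0 of the 7 genes in each case. With the horse as a replicate block 0 probes were called, 1800 had an unadjusted p under 0.05, and no call changed, the smallest adjusted p among probes of the 7 genes being 0.753. In the test between horses 70 probes were called, against 1 with quantile normalization, with outlier spots kept and with slide as a block, 2 with no filter, 360 with array weights, 475 with no scaling, and 0 to 466 with an array left out. Without the array of horse 4 after exercise 2 probes of the 7 genes were called there, again both of the first column, and 0 to 2 over the 6 arrays left out in turn. The 5 other pathway genes gave 0 calls under all 21 alternatives run.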
